A study of Chlorella sorokiniana and Chromochloris zofingiensis with 12 samples.

Results

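Reads matched to the Arabidopsis miR169 family were followed in small RNA libraries of 2 green algae, Chlorella zofingiensis and Chlorella sorokiniana. Members were all precursor and mature miRNA entries numbered 169 in the annotated sheets, and 6 of 893 annotated entries, or 6 of 154 miRNA entries, met this rule. They were the precursors ath-mir-169b, ath-mir-169d, ath-mir-169g and ath-mir-169m and the mature entries ath-miR-169m and ath-miR-169g*, where the asterisk names the strand opposite the miRNA strand of a hairpin. All 6 were listed in C. sorokiniana, and only ath-mir-169m was listed in C. zofingiensis.

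The 12 libraries form 4 groups of 3. Normal cultures of C. sorokiniana strain NIES-2168 and C. zofingiensis strain ATCC30412 were kept at 27 °C in Bold's Basal Medium, shaken at 30 rpm under continuous light of 10 µmol photons. The stress cultures of each strain received 100 µmol photons and 2% glucose from mid log phase. The labels give no genotype other than the strain, and nothing in them says whether the 3 libraries of a group came from separate cultures, so p-values measure the spread between these libraries, which may be technical.

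In land plants a miRNA is cut from a hairpin precursor, loaded into an Argonaute protein and guides it to matching mRNAs. Members of miR169 are known there for targeting mRNAs of NF-YA proteins, subunits of a transcription factor that binds CCAAT boxes, and in Arabidopsis the family is linked to nitrogen starvation and drought. The names used here are those of Arabidopsis loci to which algal reads were matched. They are names of matches and were not checked against an algal genome or against the annotated mature sequences.

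The commonest tag of each member, that is the read sequence with the most reads at that entry, is shown. At ath-miR-169m it held 43.3% to 54.6% of the reads per C. sorokiniana library, so that match rests on other reads as well. Capitals mark the 10 bases shared by the commonest miR169m tags of C. sorokiniana and of 1 C. zofingiensis library. Sequences are as deposited, 5′ to 3′, in DNA letters.
ath-miR-169m and ath-mir-169m in C. sorokiniana, 15 bases, 20 mapping loci: tgttaCTTTGAGTAA
ath-mir-169m in C. zofingiensis stress replicate 2, 12 bases, 43 mapping loci: CTTTGAGTAAaa
ath-mir-169m in the other 3 C. zofingiensis libraries that list it, 13 bases, 12 mapping loci: gaaggagaagtca
ath-miR-169g*, ath-mir-169d and ath-mir-169g, 11 bases, 5 mapping loci: ggtgtccggca
ath-mir-169b, 12 bases, 21 mapping loci: agtagagtataa

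The 5 tags were 11 to 15 bases long, shorter than the mature miRNAs of land plants, and each mapped to several loci of the reference used by the authors. Median lengths of the commonest tag over all miRNA entries were 12 to 14 bases in the different libraries, a range that takes in 3 of the 5 tags. Each of the 5 tags ended in A, as did 91.2% to 99.5% of the commonest tags of all annotated entries per library. GC content ran from 25.0% for the ath-mir-169b tag to 72.7% for the tag of the miR169g entries. None of the 5 was the commonest tag of an entry outside the family. In the separate table of the 100 commonest tags per library, no tag was identical to, held or shared 12 bases with any of them, and the longest shared run was 7 bases. That table lists tags of 16 to 26 bases, so none of the 5 could be identical to a listed tag. The 11-base tag could not share 12 bases with any. In C. sorokiniana normal replicate 3 the 15-base tag had 67 reads, more than the 50 reads of the rarest tag listed for that library, whereas in the other 5 libraries it had fewer reads than the rarest listed tag.

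Annotated counts, in which a read is counted at every entry it maps to, came to 2718 to 26102 per C. sorokiniana library and 14601 to 280404 per C. zofingiensis library. C. sorokiniana normal replicate 3 stood apart, with 2718 annotated counts at 113 entries against at least 14414 counts at 261 entries in the other C. sorokiniana libraries. The differences of miR169m in share of annotated counts and the log2 fold change of ath-miR-169m are given with and without it. Shares by other denominators, shares within the miR169m entries, nearest profiles and fits with other scalings are given with it alone. The smallest count in any sheet was 2, as was that of a commonest tag. An unlisted entry, taken as 0, may therefore have had 1 read, or more if tags read once are not listed. The intervals below cover counting error alone, since the reads carry no molecular identifiers.

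In C. sorokiniana ath-miR-169m had the most reads of all mature entries and ath-mir-169m the most of all precursors, whereas C. zofingiensis had 6 reads or fewer per library at either. Mature ath-miR-169m had 389, 353 and 130 reads in the normal C. sorokiniana libraries and 357, 335 and 353 under stress. It had the highest count of its type in each of the 6 libraries, among 4 to 13 listed mature entries. The precursor ath-mir-169m had the same 389, 353 and 130 reads in normal culture, and 371, 344 and 359 after stress, and it ranked first in each of the 6 among 11 to 43 listed precursors. These ranks are of read counts, not of levels per length. By raw counts the normal and stress groups overlapped, and 5 of the 6 libraries lay between 335 and 389 mature reads while normal replicate 3 lay far below.

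**Figure D1:**
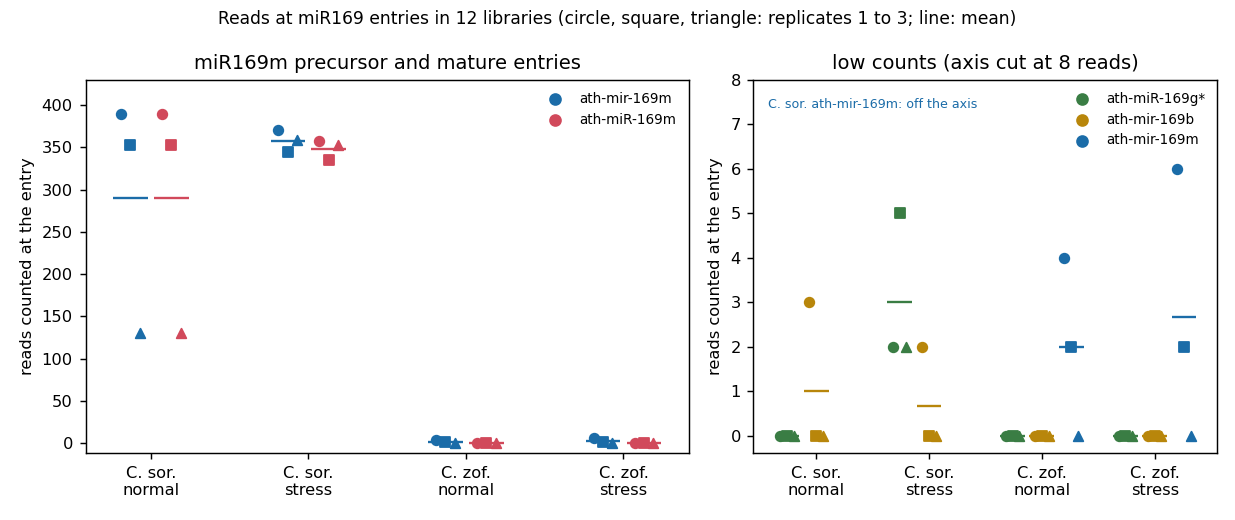
Reads counted at miR169 entries (y axis, linear) in each of 12 libraries by group (x axis), with a line at the mean of 3 libraries. The left panel shows the miR169m entries, at 0 to 6 reads for C. zofingiensis and at 130 to 389 for C. sorokiniana, and the right panel the entries with 0 to 6 reads, where ath-miR-169g* stands also for ath-mir-169d and ath-mir-169g.

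In C. zofingiensis mature ath-miR-169m was listed in none of the 6 libraries. Precursor reads numbered 4, 2 and 0 in normal culture, then 6, 2 and 0 with stress, with replicate 3 of both cultures unlisted. As a share of annotated counts ath-mir-169m took 3.08% ± 1.49 (SD, n = 3) in normal C. sorokiniana and 0.00976% ± 0.0153 in normal C. zofingiensis. Under stress the shares were 1.61% ± 0.25 and 0.00352% ± 0.00550. Every C. sorokiniana library lay above every C. zofingiensis library, and in each culture type the exact two-sided permutation test gave p = 0.1, the smallest that 3 against 3 allows (adjusted p = 0.133 over 16 share tests of the members). Shares of 29 of the 295 entries tested in either species, or 9.83%, likewise lay above in every C. sorokiniana library. Without C. sorokiniana normal replicate 3 the species difference in normal culture was -2.22 percentage points in place of -3.07. RNA content per cell and the number of cells cannot be told apart in such bulk libraries.

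The stress comparison asked whether the miR169 entries changed under strong light with glucose. Mature ath-miR-169m took 2.00%, 2.45% and 4.78% of annotated counts in the normal C. sorokiniana libraries and 1.70%, 1.28% and 1.71% under stress. Each stress library lay below each normal library. The difference of the means was -1.52 percentage points (exact permutation test, two-sided, n = 3, p = 0.1, adjusted p = 0.133), and -0.66 without normal replicate 3, which held the highest share. In 16.9% of the entries tested in this species, identical ones included, the stress shares also lay wholly below the normal ones. In 56.6% the groups did not overlap in either direction. The precursor differed by -1.47 percentage points, and by -0.62 without that library.

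Other denominators did not all keep this direction. With entries of identical counts entered once in the total, ath-miR-169m took 12.2% ± 4.30 in normal and 7.16% ± 1.02 in stress libraries, again without overlap (exact permutation test, n = 3, p = 0.1). Of the counts of miRNA entries it took 20.6%, 31.7% and 33.7% in normal and 22.8%, 22.2% and 24.9% in stress libraries, which overlapped (exact permutation test, n = 3, p = 0.4). Set against the reads of the 100 commonest tags, which are a part of each library and not its depth, it came to 0.197% ± 0.0934 in normal and 0.222% ± 0.0429 in stress libraries, in the opposite direction (exact permutation test, n = 3, p = 0.9).

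**Figure D2:**
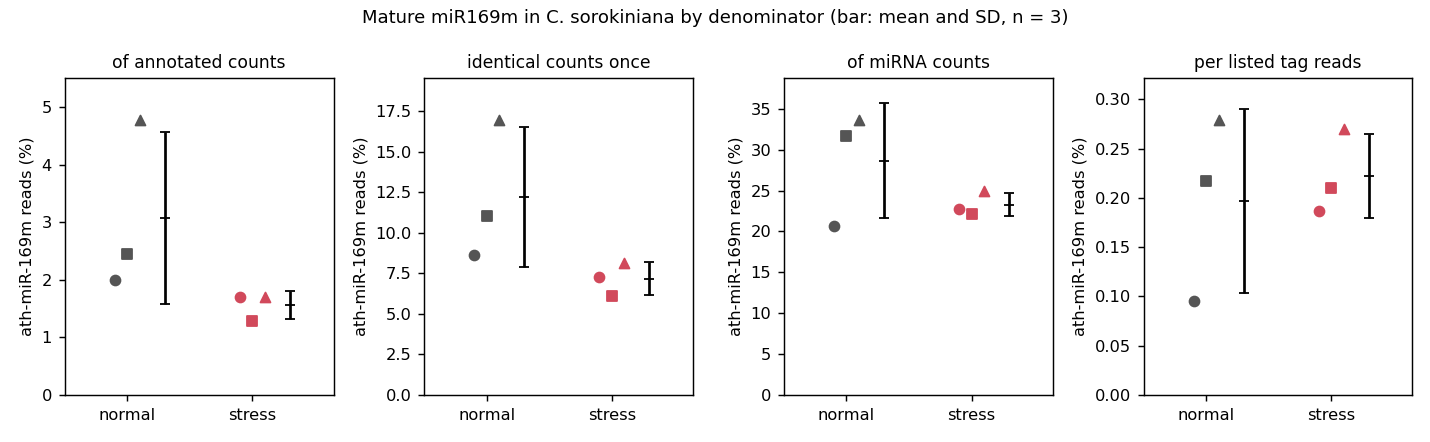
Mature ath-miR-169m in the 3 normal and 3 stress libraries of C. sorokiniana, as a percent of 4 denominators (y axes, each from 0), with points for libraries and bars for the mean and SD. Stress libraries lie below normal ones for annotated counts and for annotated counts with identical entries once, and overlap with them for the other denominators.

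Over all tested entries of C. sorokiniana, 33.1% were called, 10.8% higher and 22.3% lower under stress (quasi-likelihood test of edgeR, threshold of 0.05 on the Benjamini-Hochberg adjusted p). This split of 18 higher and 37 lower moved with the scaling, to 29 and 30 with library totals alone, 22 and 22 with DESeq2, 17 and 19 with RLE (relative log expression) factors, 40 and 1 with identical counts entered once, and 107 and 0 with listed tag reads as library size. Of the 6 miR169 entries 2 passed the filter on low counts, and both fell in this fit. Mature ath-miR-169m fell by 1.31 ± 0.36 (SE) on the log2 scale (adjusted p = 0.00158 by edgeR with Benjamini-Hochberg), but stood at 0.11 ± 0.35 with identical counts entered once, 0.18 ± 0.48 with listed tag reads as library size and 0.015 ± 0.20 among miRNA entries alone. Its precursor fell by 1.27 ± 0.36 (adjusted p = 0.00208 in the same edgeR fit), and turned to 0.15, 0.22 and 0.054 under the same 3 settings. The precursor's reads are those of the mature entry plus at most 14, so the pair is close to 1 measurement. With DESeq2 and with RLE factors ath-miR-169m was at -0.74 and not called. Without normal replicate 3 it was at -0.78 and called, while without normal replicate 2 (-0.45) or stress replicate 1, 2 or 3 (-0.81, -0.55 and -0.69) it was not. In the authors' deposited table, with its groups read in the order of its name, ath-miR-169m had normalized values of 59.4 in normal and 50.7 in stress, with p = 0.781 and FDR = 1. The same authors' deposited table gave ath-mir-169m values of 59.4 and 51.7, with FDR = 1. No source used here gives the scale of those values.

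The place of ath-miR-169m among the annotated entries was below their median in each of these fits other than that of miRNA entries alone. The median log2 fold change of all tested entries was 0.19 in the fit with TMM (trimmed mean of M values) scaling, 0.50 with library totals alone, 0.69 with DESeq2, 0.68 with RLE factors, 1.41 with identical counts once, 1.56 with listed tag reads and 1.06 with no filter. Relative to these medians ath-miR-169m lay at -1.30 to -2.14 in all 8 settings that used every class of entry and every library, and at -1.06 to -1.76 with a library left out. In those 8 settings 17.5% to 22.2% of the tested entries had a lower log2 fold change than ath-miR-169m. That share was 18.1% alike with TMM, library totals alone, DESeq2, RLE factors and the replicate block. A change of scaling or library size shifts all entries nearly alike, so agreement between such settings is no test of this place. Among miRNA entries alone ath-miR-169m was itself the median of the 15 tested.

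**Figure D3:**
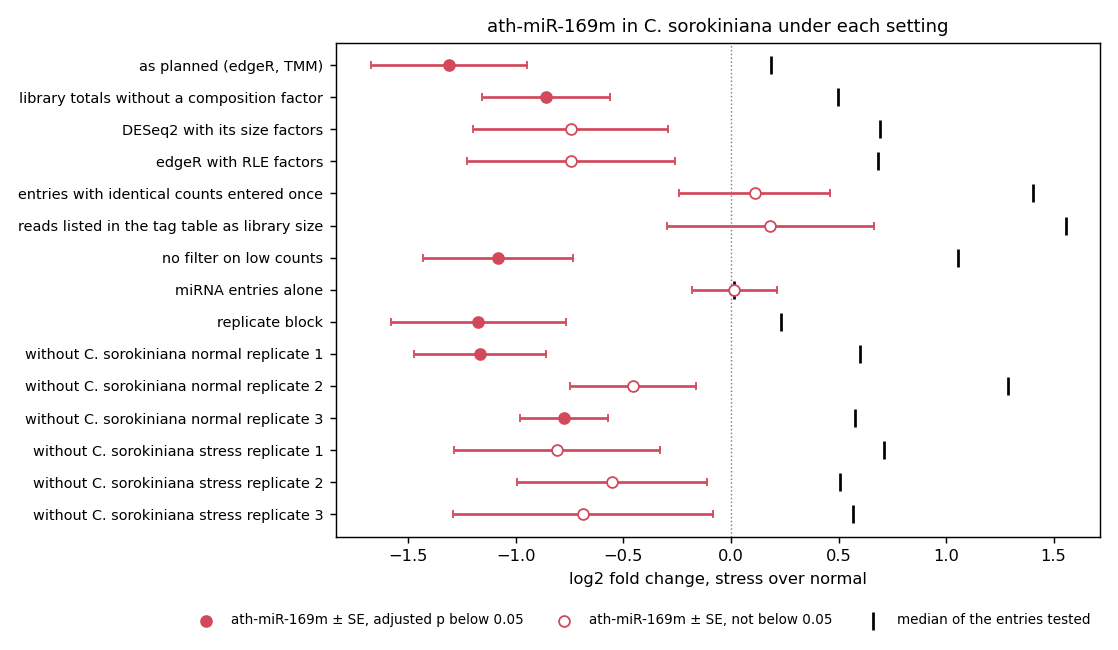
Log2 fold change of ath-miR-169m, stress over normal in C. sorokiniana (x axis), with its SE under each setting (y axis). Filled points have an adjusted p below 0.05 and black ticks mark the median of the entries tested, which, other than for miRNA entries alone, shifts from 0.19 to 1.56 while ath-miR-169m shifts from -1.31 to 0.18.

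Reads at the miR169m precursor that lay outside the mature entry were seen in C. sorokiniana under stress and not in normal culture. In the normal libraries all 389, 353 and 130 precursor reads were counted at the mature entry. In the stress libraries 14 of 371, 9 of 344 and 6 of 359 reads were not, which is 3.77% (95% exact interval 2.08 to 6.25), 2.62% (1.20 to 4.91) and 1.67% (0.616 to 3.60). The exact upper limits of the normal libraries were 0.944%, 1.04% and 2.80%, and that of replicate 3 lies above the shares of stress replicates 2 and 3. At the mature entry the share was 100% in each normal library and 97.3% ± 1.05 (SD, n = 3) under stress (p = 0.1 in a two-sided exact permutation test, its lowest possible value). The smallest count of a commonest tag was 2, so tags read once may not be listed, and the part of this in the result was not tested. Entries of all classes listed were also more under stress, 507, 483 and 417 against 355, 261 and 113 in normal libraries. Other pairs of precursor and mature entries were not examined, so the difference is not shown to be particular to miR169m. By the deposited counts and locus-divided values, these outside reads mapped to 21.7, 22.7 and 16.0 loci each (harmonic means).

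Within the mature entry the shares of the 15-base tag overlapped between the cultures. It had 187, 153 and 67 reads in the normal libraries, or 48.1%, 43.3% and 51.5% of ath-miR-169m. Under stress it had 195 and 170 reads in replicates 1 and 2, and its shares were 54.6%, 50.7% and 45.0%. The means were 47.7% ± 4.11 and 50.1% ± 4.82 (SD, n = 3), a difference of 2.49 percentage points (exact permutation test, two-sided, p = 0.5). The remaining 63 to 202 reads per library mapped to fewer places, 3.73 to 4.43 loci by harmonic mean, against 20 for the 15-base tag. Most of the locus-divided signal therefore came from reads other than the tag shown above.

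**Figure D4:**
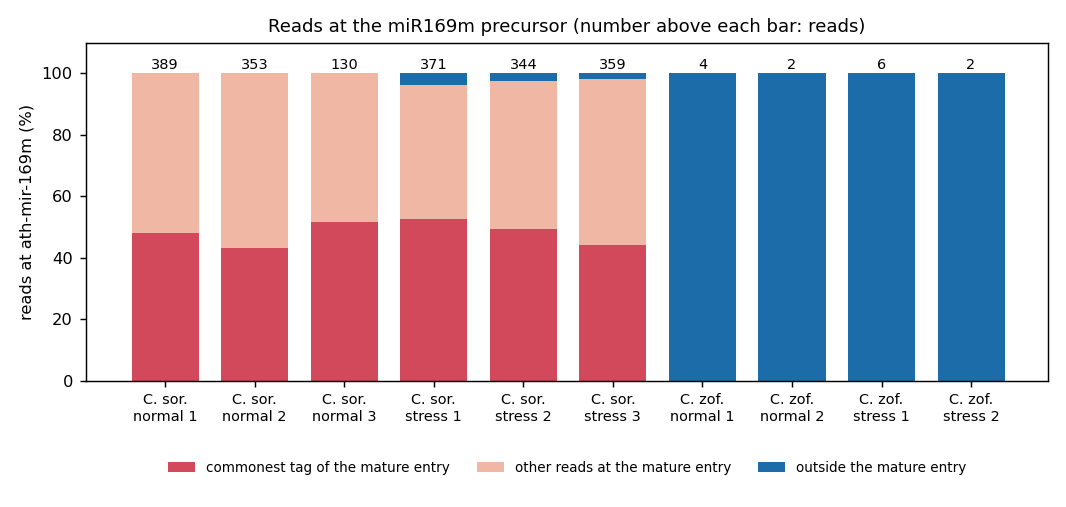
Reads at ath-mir-169m in the 10 libraries that list it (x axis), split in percent (y axis) into the commonest tag of the mature entry, other reads at the mature entry and reads outside it, with the number of reads above each bar. Reads outside the mature entry are 0% in normal and 1.67% to 3.77% in stress libraries of C. sorokiniana, and 100% of the 2 to 6 reads of C. zofingiensis.

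In C. zofingiensis no precursor read lay at the mature entry. The 13-base tag gave all 4 and both reads of normal replicates 1 and 2 and 3 of the 6 reads of stress replicate 1. Stress replicate 2 had the 12-base tag that shares 10 bases with the C. sorokiniana tag. The entry did not pass the filter on low counts, and with no filter its log2 fold change was -0.14 ± 1.34 (edgeR, Benjamini-Hochberg adjusted p = 0.928). Shares of annotated counts overlapped between cultures (exact permutation test, n = 3, p = 0.7, adjusted p = 0.862), whereas 26.2% of the 248 tested entries did not overlap, 16.5% with stress lower and 9.68% with stress higher. In the joint fit of the 12 libraries, which called 25.2% of 262 entries for a difference of the stress response between the species, ath-mir-169m passed the filter only through its reads in C. sorokiniana. Its interaction term, C. zofingiensis minus C. sorokiniana, was 1.06 ± 1.60 on the log2 scale (edgeR, Benjamini-Hochberg adjusted p = 0.591). With 0 to 6 reads per C. zofingiensis library, this value does not show whether the species differed in response.

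The miR169g entries were listed in C. sorokiniana under stress alone. ath-miR-169g*, the strand opposite the miRNA in the miR169g hairpin, was unlisted in all 3 normal libraries, and the stress libraries had 2, 5 and 2 reads. The precursors ath-mir-169g and ath-mir-169d had exactly these counts and the same commonest tag in each library, so the 3 entries are 1 measurement of 9 reads. The exact permutation test of their share gave p = 0.1 (two-sided, n = 3, adjusted p = 0.133). Among the entries that passed the filter on low counts, 39.8% had stress shares wholly above the normal ones. The miR169g entries did not pass that filter, so this percentage is not a background of entries with similar counts. Stress libraries also listed more entries of all classes, 507, 483 and 417 against 355, 261 and 113 in normal libraries. Whether other entries with few reads were as often listed under stress alone was not tested. The mean share of the miR169g entries under stress, 0.0128%, would be less than 1 read among the 2718 annotated counts of normal replicate 3. Such an entry would not be listed there. In normal replicates 1 and 2, with 19408 and 14414 annotated counts, the same share would be more than 1 read. With no filter the fitted log2 fold change, which against unlisted libraries depends on the prior count and is no bound, was 4.22 ± 2.37 (edgeR, Benjamini-Hochberg adjusted p = 0.231). Reads at ath-mir-169b, the remaining precursor, were 3 in normal replicate 1 and 2 in stress replicate 1 and unlisted in the other 4 libraries. Its log2 fold change with no filter was -1.22 ± 1.85 (edgeR, Benjamini-Hochberg adjusted p = 0.622).

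Other miRNA families conserved in land plants gave few reads in C. sorokiniana. Of 21 listed entries of 23 such families 4 passed the filter, with a median log2 fold change of -1.98, and all 4 were called lower, where 22.3% of all tested entries were. They are close to 2 measurements, since ath-mir-396a and ath-mir-396b differed in 1 library alone, with 13 against 15 reads in stress replicate 3, and the 2 miR399b entries were identical. The miR396 precursors, whose mature form in land plants represses growth-regulating factors, gave -2.25 ± 0.59 for ath-mir-396a (edgeR, Benjamini-Hochberg adjusted p = 0.000917) and -2.19 ± 0.59 for ath-mir-396b (0.00115). Mature ath-miR-399b, named for a miRNA that acts on phosphate uptake, and its precursor had identical counts and were at -1.77 ± 0.49 (edgeR, Benjamini-Hochberg adjusted p = 0.00163). Their log2 fold changes stayed below 0 in every setting without a library left out, although the miR399b entries were not called with DESeq2 (Benjamini-Hochberg adjusted p = 0.061) or with RLE factors in edgeR (adjusted p = 0.117), and none of the 4 was called with identical counts once, with listed tag reads as library size or among miRNA entries alone. With a library left out, no entry of the conserved families was called without any 1 of the stress replicates, and 1, 2 and 4 were called lower without normal replicate 1, 2 and 3. The 2 miR399b entries were also the only tested ones of 8 listed entries of nutrient-linked families. Among all miRNA entries other than miR169, 1 was called higher and 7 lower of 10 tested, with a median of -1.64, against a median of 0.19, 10.8% called higher and 22.3% called lower over all tested entries. These counts moved with the setting, to 3 higher and 2 lower with DESeq2, 1 and 2 with RLE factors, 2 and 0 of 7 with identical counts once, 3 and 0 with listed tag reads and 2 and 0 of 13 among miRNA entries alone. With no filter 5 were called higher and 7 lower of 68, with a median of 1.44, where 14.5% of all 633 entries were called higher and 5.21% lower. With a library left out, 0 to 3 were called higher and 0 to 7 lower, and none was called lower without any 1 of the stress replicates. In C. zofingiensis, where 35.1% of 248 entries were called, or 53.2% with the replicate number as a block, no entry of the conserved families passed the filter among 33 listed. With no filter 8 of the 33 were called higher and 0 lower, where 14.1% of all 792 entries were called higher and 3.54% lower. Among miRNA entries alone 4 of 4 tested were called higher, where 47.1% of all 17 were called higher and 23.5% lower. Leaving out normal replicate 1, 2 or 3 or stress replicate 2 let 8 entries pass, of which 5, 4, 3 and 4 were called higher and 0 lower. Over all tested entries of those fits 33.8%, 20.1%, 25.6% and 20.6% were called higher, and 25.5%, 4.46%, 8.55% and 8.91% lower. Without stress replicate 1 or 3 the 1 entry that passed was not called. Whether these families differed in response between the species was not tested as a list.

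The entries most like ath-miR-169m were found by the root mean square difference of log2(CPM + 1), with CPM the counts scaled to a common annotated total, centred on the mean of 6 C. sorokiniana libraries. Among miRNA entries ath-mir-855 was nearest, at 0.53, at 8, 5 and 2 normal reads and 12, 4 and 4 stress reads. Next came ath-miR-399b at 0.55, with 29, 13 and 6 reads and 14, 9 and 8, and ath-mir-5652 at 0.65, with 206, 55 and 21 reads and 61, 59 and 110. Among entries of any class the nearest were the small nucleolar RNA SNORD33 at 0.45, a tRNA profile shared by 5 entries at 0.47 and the small nucleolar RNA snoZ103 at 0.50. SNORD33 had 48, 44 and 24 normal reads and 30, 33 and 25 stress reads. All these profiles were divided by the same totals, so they share the low total of normal replicate 3. In C. zofingiensis the nearest miRNA entry to ath-mir-169m was ath-mir-841b at 1.59, listed in 2 of the 6 libraries with 2 and 3 reads.

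**Figure D5:**
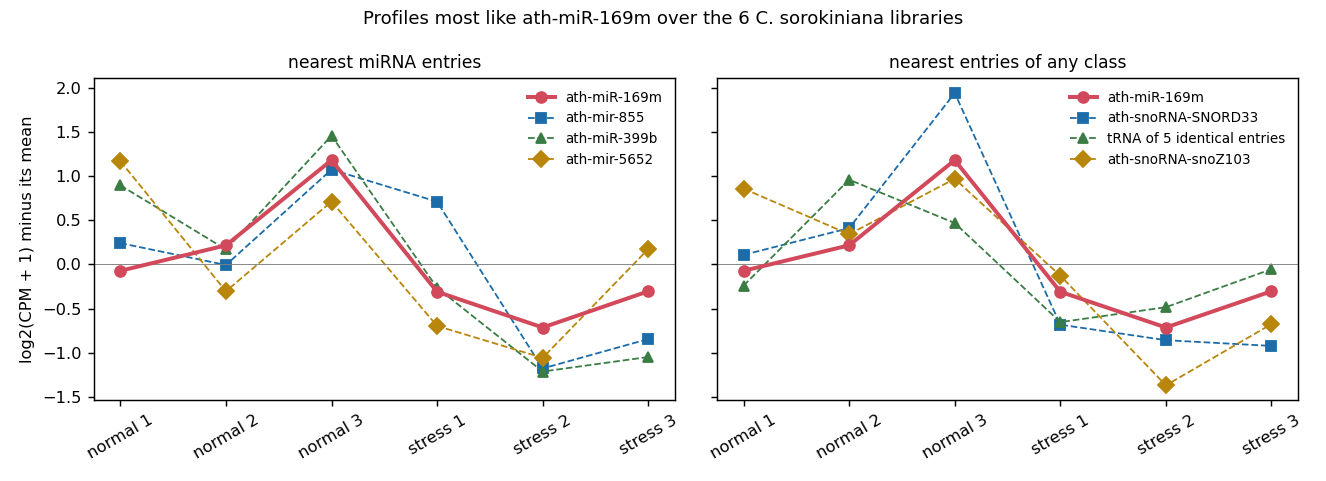
Centred log2(CPM + 1) (y axis) of ath-miR-169m and of the entries nearest to it over the 6 C. sorokiniana libraries (x axis), miRNA entries on the left and all classes on the right; lines join the points of 1 entry and give no order of replicates. The 3 nearest lie at root mean square differences of 0.53 to 0.65 on the left and 0.45 to 0.50 on the right.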

How the data were processed

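Small RNA of total RNA, extracted with TRIzol and made into libraries with a NEBNext kit per the labels' protocols, was sequenced in 12 libraries. The annotation sheets hold deposited counts of reads per Arabidopsis entry, per the file headers, and a deposited signal in which reads are divided by their mapping loci. The sheets were matched to samples by sheet names equal to sample titles. The tag table holds deposited counts of the 100 commonest tags per library. The authors' deposited comparison tables hold their normalized group signal and p-values. DESeq and the build TAIR9 are named in the submitters' processing notes; no aligner or trimming step is given in the sources used here.

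Counts were tested with edgeR 4.0.16 in R 4.3.3 (quasi-likelihood, TMM, filterByExpr, robust, two-sided), each species alone with condition as the term, and over 12 libraries for the interaction, on all entries, with Benjamini-Hochberg adjustment and a threshold of 0.05. The test was checked on simulated data with identical counts entered once and equal numbers of planted rises and falls. That check does not cover repeated entries or an unequal split of rises and falls. DESeq2 1.42.0 was an alternative. Shares were compared with exact permutation tests (scipy 1.17.1). Tables were made with pandas 2.3.3 and numpy 2.4.6 in Python 3.11.15, and figures with matplotlib 3.10.9. Over 12 replicate pairs the counts differed by a chi-square of 2.10 to 156 per degree of freedom, so no library was a copy of another. Deviations of same-numbered normal and stress libraries from their group means correlated at 0.22, 0.33 and 0.16 in C. sorokiniana, and 0.74, 0.73 and 0.10 in C. zofingiensis. Those of differently numbered libraries correlated at -0.27 to 0.03 and at -0.70 to 0.24. In C. zofingiensis normal 1 with stress 3 (0.24) and normal 3 with stress 2 (0.19) lay above the pair of replicate 3. Deviations within a group cancel out, so these correlations are not independent. The replicate number was taken as a possible pairing and used as a block in an alternative. This pairing comes from the data, since the labels give only the shared numbers.

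All members were named. Other entries were named as the best counted of the conserved and nutrient-linked families and as the 3 nearest in profile. Members and lists were chosen with earlier results of these data known. Alternatives were other scalings, library sizes and filters, identical counts once, miRNA entries alone, the block and leaving out each library. Annotated counts ranged from 2718 to 280404 per library, and are not depth, since a read is counted at every entry it maps to.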

Additional observations from a re-analysis of the deposited data

How the results depend on the processing

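For ath-miR-169m and ath-mir-169m in C. sorokiniana, 3 of 8 alternatives kept the call: library totals alone (-0.86 and -0.82), no filter (-1.08 and -1.04) and the replicate block (-1.17 and -1.13, Benjamini-Hochberg adjusted p in edgeR 0.0193 and 0.024). The call ended with DESeq2 (-0.74 and -0.71, adjusted p = 0.186 and 0.188) and with RLE factors (-0.74 and -0.70, edgeR, adjusted p = 0.24 and 0.252). The direction turned with identical counts once (0.11 and 0.15), listed tag reads as library size (0.18 and 0.22) and miRNA entries alone (0.015 and 0.054). The cause was not tested. With a library left out the values ran from -1.17 to -0.45 and from -1.13 to -0.41, and 4 of 6 calls were lost for each: without normal replicate 2 (edgeR, adjusted p = 0.195 and 0.242) or stress replicate 1 (0.207 and 0.22), 2 (0.547 and 0.553) or 3 (0.643 and 0.67). The interaction term of ath-mir-169m, which with 0 to 6 reads per C. zofingiensis library does not bear on a species difference, ran from -0.79 to 1.50 with a library left out, turned without C. sorokiniana normal replicate 3 or stress replicate 2 and without C. zofingiensis normal replicate 2 or 3 or stress replicate 1, and with the replicate block was 0.63. The block changed no call of a member.

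Counts of called entries in C. sorokiniana, 55 in the planned edgeR fit, were 36 with RLE factors, 107 with listed tag reads, 125 with no filter, 2 of 15 among miRNA entries alone and 8 to 138 with a library left out. In C. zofingiensis 87 became 35 with library totals alone, 37 of 114 with identical counts once, 140 with no filter, 12 of 17 among miRNA entries alone, 132 with the replicate block and 88 to 193 with a library left out. For the species difference 66 became 15 with RLE factors, 16 of 109 with identical counts once, 112 with no filter, 7 of 19 among miRNA entries alone and 53 to 131 with a library left out.

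Of shares of annotated counts, the C. sorokiniana stress difference turned to 0.0251 (ath-miR-169m), 0.031 (ath-mir-169m) and 0.000103 (ath-mir-169b) percentage points with listed tag reads as the denominator, and that of ath-mir-169m in C. zofingiensis to 0.00053. With a library left out, ath-mir-169b ran from -0.00515 to 0.00317 and ath-mir-169m in C. zofingiensis from -0.0111 to 0.00258, each turning without normal replicate 1. With the replicate block (exact sign flips of 3 pairs, which cannot go below p = 0.25) no share passed. Depth limits the entries with 9 reads or fewer, whose folds come only from the fit with no filter.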
